A study of Mus musculus with 9 samples.

Results

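The genes described here are the amino acid transporter families of the mouse liver, taken as the solute carrier families Slc1, Slc3, Slc6, Slc7, Slc36, Slc38 and Slc43. Every protein-coding gene of the deposited table whose symbol carries 1 of these family names followed by the letter a and a number was a member, apart from 2 genes that the rule leaves out and that were not analysed here. This gave 62 members of 54532 genes in the table. Within these families the symbol alone made the choice, and the families were chosen with earlier results of these data known.

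Amino acids cross cell membranes through carriers. Some carriers use the sodium or proton gradient to concentrate amino acids inside the cell, some exchange an amino acid for another, and some only let them run down their gradient. Hepatocytes take up glutamine, alanine, arginine and other amino acids from portal blood for urea synthesis, glucose production and protein synthesis, and carriers on the lysosome return amino acids from protein breakdown and report their supply to the kinase mTORC1.

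RNA was sequenced from livers of male C57BL/6 mice, 5 to 7 weeks old, with 3 biological replicates in each of 3 groups. NC was the control group. Mice of the APAP group were fasted overnight and given acetaminophen (APAP) at 500 mg/kg into the peritoneum, and livers were taken at 6 h. Mice of the AMSC group had the same fast and the same APAP dose, and received 200000 mesenchymal stem cells from the inguinal fat of C57BL/6 mice through the tail vein straight after it, with livers also taken at 6 h. The study's methods say that every animal was fasted ahead of its APAP dose. They do not say whether this covers the NC mice or whether these were injected, so in both comparisons with NC an effect of fasting cannot be told apart from that of APAP. The AMSC libraries carry the replicate numbers 2, 3 and 4, and the title of NC replicate 3 carries another date than the other titles and the number 1, while its description carries the number 3.

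Levels are given as FPKM, the reads on a gene per kilobase of its length, scaled per library, so they can be compared between genes. Reads on genes numbered 13418921 to 16210930 per library. The total that FPKM was scaled by was not this number: it was 1.08 to 1.16 times the reads on genes in NC, 0.909 to 0.949 times in APAP and 0.969 to 0.985 times in AMSC, in proportion to median-of-ratios size factors computed here. With it, a lone read on a gene of 1 kilobase gave 0.0578 to 0.0807 FPKM. Of the 62 members, 20 reached a mean of 1 FPKM over the 9 libraries and were tested, as part of a fit to all 9699 genes at that level. Another 8 members lay under that level but reached 0.5 FPKM in at least 1 library. A further 20 had reads without reaching 0.5 FPKM in any library, 14 of them with at most 20 reads in all 9 libraries together. The last 14 members had 0 reads in every library, and 3 reads, the most that a count of 0 allows, would correspond to 0.0176 to 0.139 FPKM for these genes. These limits cover counting error only.

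Because that scaling differs by group, FPKM rescaled to the reads on genes was added as an alternative after seeing the data. It moved the median log2 fold change over all genes tested from -0.00 to -0.22 in APAP against NC, from 0.02 to -0.14 in AMSC against NC and from 0.01 to 0.06 in AMSC against APAP. The share of higher genes among all genes called went from 49.4% to 23.7%, from 54.2% to 29.5% and from 43.3% to 56.0% in the same order. Calls given below are for the deposited scaling, and calls of members that this alternative changed are named. Statements below that libraries lay above or below others are for the deposited scaling too. Some of them do not hold per read on genes, such as those for Slc7a2 and Slc43a3. Others are that of APAP above AMSC for Slc38a2 and those of AMSC above NC for Slc6a9 and Slc7a6os.

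A small number of carriers made up most of the transporter RNA. Summed over all members, the level was 762, 601 and 589 FPKM in NC replicates 1, 2 and 3, 881, 902 and 770.0 FPKM in APAP replicates 1, 2 and 3, and 834, 922 and 883 FPKM in AMSC replicates 2, 3 and 4. Slc38a3 and Slc38a4, both sodium-coupled carriers of neutral amino acids, together held 69.1% of the summed FPKM in the NC mean, 61.8% in the APAP mean and 64.7% in the AMSC mean. Next in mean FPKM over the 9 libraries came Slc7a2, Slc6a13 and Slc38a2, but this order differed by group. In the NC mean Slc6a13 (52.9 FPKM) was above Slc7a2 (35.6), and Slc38a2 (10.6) was also below Slc6a12 (22.9). In the APAP and AMSC means Slc7a2 (73.9 and 92.9) was followed by Slc38a2 (63.7 and 54.7) and then Slc6a13 (63.3 and 45.1). In these bulk samples, fewer cells of a type and less RNA per cell cannot be told apart, for members and other genes alike.

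The comparison of APAP with NC asks how carrier RNA differed after the toxic dose. Of the 20 members tested with limma, 8 were called at an adjusted p of at most 0.05, which is 40% of them, and 25.9% of all genes tested were called. 5 members were higher (12.8% of all genes) and 3 were lower (13.1% of all genes). Slc38a2, Slc7a2, Slc7a5, Slc3a2 and Slc3a1 rose, and Slc36a1, Slc38a7 and Slc43a1 fell. With a minimum log2 fold change of 1 in either direction added, a call named DEG here, 5 members passed, 4 higher and 1 lower, beside 7.90% of all genes. The median log2 fold change was 0.26 over the members tested and -0.00 over all genes tested. The count of members called was 4 without NC replicate 2, 4 without APAP replicate 2 and 4 when genes under 1 FPKM were also tested. Over all genes, calls went from 2514 to 1353, 1655 and 1924 in the same order, the last out of 24849 genes tested. That last test covered 48 members, and its 4 calls were 3 of the 8 above and Slc7a1. The DEG count was 3 without APAP replicate 1, 3 when genes under 1 FPKM were also tested and 2 after quantile normalization and with FPKM rescaled to the reads on genes. The share of DEGs among all genes is not given for these alternatives, so these DEG counts have no background beside them. The rescaled FPKM called 9 members, beside 3467 of all 9699 genes.

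The comparison of AMSC with NC asks the same for dosed mice that also received stem cells, and it uses the same NC libraries. Here 9 members were called, which is 45% of those tested, and 26.0% of all genes were called. 7 members were higher (14.1% of all genes) and 2 were lower (11.9% of all genes). Slc38a2, Slc7a5, Slc7a2, Slc3a2, Slc38a4, Slc43a3 and Slc6a16 rose, and Slc36a1 and Slc43a1 fell. The DEG call was met by 5 members, 4 higher and 1 lower, beside 6.01% of all genes. The median log2 fold change was 0.23 over the members tested and 0.02 over all genes tested. The count of members called was 6 when any of NC replicates 1 and 2 or AMSC replicates 2 and 4 was left out. Over all genes, calls went from 2521 to 1683, 1678, 1853 and 1754 in the same order. When genes under 1 FPKM were also tested, 6 of 48 members were called, 4 of the 9 above among them, beside 1776 of 24849 genes. A fit with replicate number as a block called 5 members, beside 846 of 9699 genes.

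The comparison of AMSC with APAP asks how carrier RNA differed with the cell transfer among dosed mice. No member was called: limma gave 0 of 20, with 4 members at an unadjusted p under 0.05, and 3.78% of all genes were called. The DEG call was met by 0 members and by 1.96% of all genes. limma with voom weights on recovered reads also gave 0 of 20 members. An alternative chosen after seeing the data, voom on all genes with a mean of at least 10 reads, tested 31 members and called 1, Slc1a4, beside 593 of all 12697 genes tested. The median log2 fold change was -0.02 over the members tested and 0.01 over all genes tested. This comparison shares the APAP libraries and the AMSC libraries with the other comparisons.

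**Figure D1:**
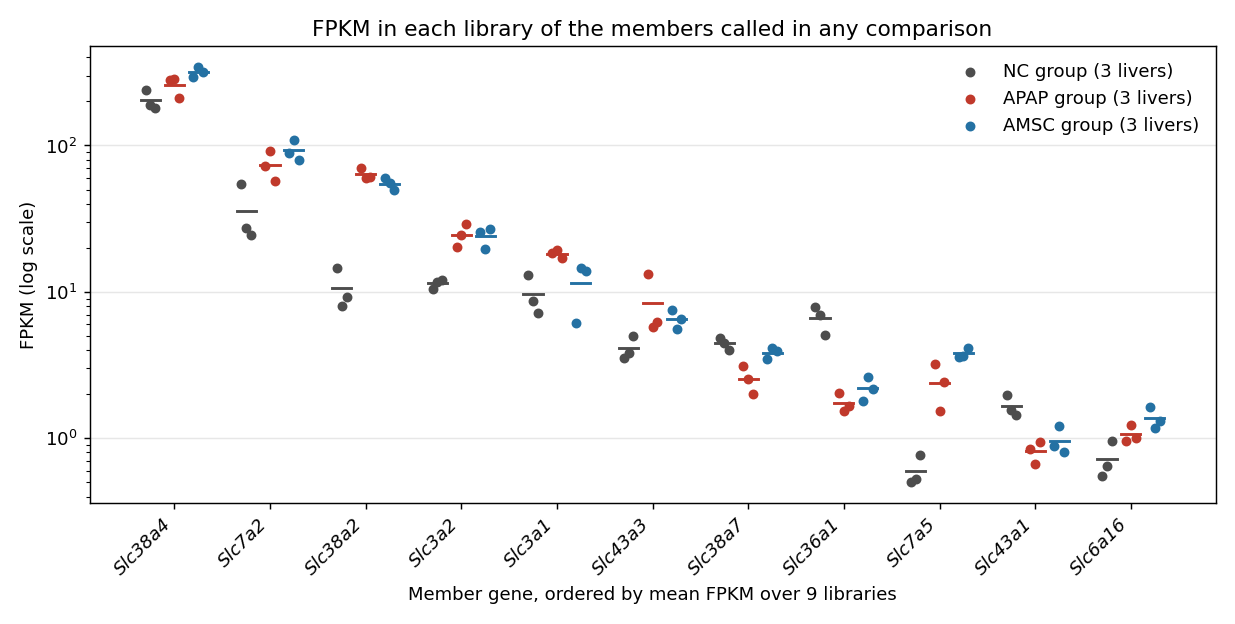
FPKM (log axis) of the 11 members called in at least 1 comparison, with 1 point for each of the 9 libraries, by group. Slc38a4 reached 343 FPKM and Slc7a5 started at 0.501 FPKM, and the 3 NC points of Slc38a2 lie below its 6 points from dosed mice.

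Within the Slc38 family, 5 of 11 members were tested. The family couples uptake of small neutral amino acids to sodium, and Slc38a2 is the carrier of it that cells are known to make more of when amino acids run short. Slc38a2 (ENSMUSG00000022462, chr15:96687392-96699730, minus strand) stood at 14.5, 8.07 and 9.26 FPKM in NC replicates 1, 2 and 3, at 70.0, 60.2 and 60.8 FPKM in APAP replicates 1, 2 and 3, and at 59.5, 55.0 and 49.6 FPKM in AMSC replicates 2, 3 and 4. The 6 libraries of dosed mice all lay above the 3 NC libraries, and each APAP library was above each AMSC library. Unless an alternative is named beside them, fold changes are differences of log2(FPKM + 1), a scale that understates changes of genes at low FPKM. Slc38a2 rose by a log2 fold change of 2.52 (adjusted p = 0.000246, SE 0.20) in APAP against NC, and the ratio of group mean FPKM was 6.01. In AMSC against NC it rose by a log2 fold change of 2.30 (adjusted p = 0.000156, SE 0.19), a ratio of 5.16. These were the largest absolute changes of log2(FPKM + 1) among the tested members, but in AMSC against NC Slc7a5 was ahead by the ratio of mean FPKM (6.34), with a pseudocount of 0.1 (log2 fold change 2.50 against 2.40) and by voom (2.67 against 2.41).

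The product of Slc38a4 carries neutral amino acids with sodium and is abundant in liver. Slc38a4 (ENSMUSG00000022464, chr15:96994820-97055956, minus strand) stood at 241, 189 and 180.0 FPKM in NC replicates 1, 2 and 3, at 279, 286 and 211 FPKM in APAP replicates 1, 2 and 3, and at 294, 343 and 316 FPKM in AMSC replicates 2, 3 and 4. Every AMSC library lay above every NC library, and APAP replicate 3 was within the NC range while the other APAP libraries lay between the NC and AMSC ranges. Its log2 fold change was 0.65 in AMSC against NC (adjusted p = 0.0114, SE 0.14), and the adjusted p ran from 0.00605 to 0.0821 over the 15 alternatives, of which 12 called it. The call was lost after quantile normalization (0.0608) and when genes under 1 FPKM were also tested (0.0595), among others. In APAP against NC, the adjusted p was 0.189.

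Slc38a7 is a carrier of the lysosomal membrane that lets out glutamine and asparagine. Slc38a7 (ENSMUSG00000036534, chr8:95835920-95853539, minus strand) stood at 4.82, 4.51 and 4.02 FPKM in NC replicates 1, 2 and 3, at 3.13, 2.55 and 1.99 FPKM in APAP replicates 1, 2 and 3, and at 3.48, 4.12 and 3.92 FPKM in AMSC replicates 2, 3 and 4. The APAP libraries were the lowest, each below every NC and every AMSC library, and the AMSC and NC libraries overlapped. Slc38a7 fell in APAP against NC, with a log2 fold change of -0.62 (adjusted p = 0.0187, SE 0.15). This call was lost without NC replicate 1 (adjusted p = 0.0762), NC replicate 2 (0.0708) or APAP replicate 2 (0.0540) and when genes under 1 FPKM were also tested (0.0673), with a range of 0.00460 to 0.0762 over the 15 alternatives. For AMSC against NC, the adjusted p of Slc38a7 was 0.294, and in AMSC against APAP it was 0.140.

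The other tested members of the family were not called. Slc38a3, the sodium-coupled glutamine and histidine carrier of hepatocytes, held group means of 246 ± 33.6 FPKM in NC, 268 ± 13.0 in APAP and 252 ± 9.40 in AMSC (SD, n = 3 each). Its mean FPKM was above that of every other member in NC and in APAP, and Slc38a4 was above it in AMSC. In APAP this order of means rests on replicate 3 (261 FPKM against 211 for Slc38a4). Slc38a4 was the higher in APAP replicates 1 (279 against 259) and 2 (286 against 283). Relative to its level, the range of Slc38a3, 220.4 to 284 FPKM over the 9 libraries, was narrow beside that of Slc38a2, 8.07 to 70.0 FPKM. The order of its groups depends on the scaling: its reads were 66468 in NC, 55322 in APAP and 58320 in AMSC, and the log2 fold change of APAP against NC was 0.13, or -0.13 with FPKM rescaled to the reads on genes. Slc38a10 had group means of 15.8 FPKM in NC, 13.4 in APAP and 13.4 in AMSC, and only the rescaled FPKM called it, in APAP against NC (adjusted p = 0.0308, range 0.0308 to 0.532 over the 15 alternatives). Under the level for testing, Slc38a6 lay between 0.335 and 0.747 FPKM, and Slc38a8 had 0 reads. Slc38a9, the lysosomal arginine sensor that signals to mTORC1, reached 0.495 FPKM at most, from 857 reads over the 9 libraries, and it is named after its values were seen.

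Arginine, lysine and ornithine enter cells through the cationic carriers of the Slc7 family, of which 1 of 5 members was tested. Slc7a2 is the cationic carrier typical of hepatocytes. Slc7a2 (ENSMUSG00000031596, chr8:40862396-40922308, plus strand) stood at 55.0, 27.4 and 24.5 FPKM in NC replicates 1, 2 and 3, at 72.5, 91.8 and 57.4 FPKM in APAP replicates 1, 2 and 3, and at 89.5, 109 and 80.0 FPKM in AMSC replicates 2, 3 and 4. NC replicate 1 stood well above the other NC libraries and close to APAP replicate 3, yet no NC library reached the lowest library of the dosed mice. Per read on genes this separation did not hold. NC replicate 1 had 8381 of 15444087 reads on Slc7a2, a larger share than the 7049 of 14167230 in APAP replicate 3. Slc7a2 rose in APAP against NC by a log2 fold change of 1.10 (adjusted p = 0.0357, SE 0.31), with a ratio of mean FPKM of 2.08. Without single libraries this call was lost: NC replicate 2 (adjusted p = 0.122), NC replicate 3 (0.102), APAP replicate 1 (0.0622) and APAP replicate 2 (0.115). It was also lost after quantile normalization (0.0575), with FPKM rescaled to the reads on genes (0.0544) and when genes under 1 FPKM were tested too (0.158), the range over the 15 alternatives being 0.00845 to 0.158. From NC to AMSC, the rise of Slc7a2 was 1.44 in log2 (adjusted p = 0.00784, SE 0.28), and 14 of 15 alternatives kept the call, the exception being the test that included genes under 1 FPKM (adjusted p = 0.0805, range 0.000238 to 0.0805).

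Slc7a1, the cationic carrier of most tissues other than liver, was near the limit of detection in control liver. Slc7a1 (ENSMUSG00000041313, chr5:148327410-148399904, minus strand) stood at 0.0676, 0.0502 and 0.00504 FPKM in NC replicates 1, 2 and 3, at 0.679, 0.819 and 0.781 FPKM in APAP replicates 1, 2 and 3, and at 0.491, 0.160 and 0.606 FPKM in AMSC replicates 2, 3 and 4. These levels rest on 13, 10 and 1 reads in the NC replicates, 105, 117 and 121 reads in the APAP replicates and 90, 24 and 105 reads in the AMSC replicates. All 6 libraries of dosed mice lay above all 3 NC libraries, and AMSC replicate 3 was the lowest of the 6. Slc7a1 was under the level for testing, and 2 alternatives tested it. For APAP against NC, the test without the filter on low genes gave a log2 fold change of 0.76 (adjusted p = 0.00657), and voom on genes with at least 10 mean reads gave 4.65 on log2 normalized reads (adjusted p = 0.00118). With AMSC compared with NC, the adjusted p was 0.139 in the former and 0.0131 in the latter, and these alternatives differ in several choices at once. Of the other cationic members, Slc7a3 had 10 reads over the 9 libraries, Slc7a14 had 0, and Slc7a4 lay between 0.130 and 0.573 FPKM.

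Heteromeric exchangers pair a light chain of the Slc7 family, which carries the amino acids, with a heavy chain of the Slc3 family, which brings the pair to the membrane. Both heavy chains and 1 of 9 light chains were tested. Slc7a5 is the light chain that exchanges large neutral amino acids such as leucine against glutamine. Slc7a5 (ENSMUSG00000040010, chr8:121881150-121907694, minus strand) stood at 0.501, 0.530 and 0.768 FPKM in NC replicates 1, 2 and 3, at 3.20, 1.55 and 2.43 FPKM in APAP replicates 1, 2 and 3, and at 3.62, 3.65 and 4.14 FPKM in AMSC replicates 2, 3 and 4. The lowest library of dosed mice, APAP replicate 2, was above the highest NC library, and each AMSC library was above each APAP library. Slc7a5 rose in APAP against NC by a log2 fold change of 1.06 (adjusted p = 0.00755, SE 0.19), with a ratio of mean FPKM of 3.99. That call was lost when genes under 1 FPKM were also tested (adjusted p = 0.0510, range 0.00175 to 0.0510 over the 15 alternatives), and with FPKM rescaled to the reads on genes its log2 fold change was 0.93. In AMSC against NC, Slc7a5 rose by 1.59 in log2 (adjusted p = 7.96e-05, SE 0.12), a ratio of mean FPKM of 6.34. Although the APAP and AMSC libraries did not overlap, AMSC against APAP gave a log2 fold change of 0.53 that failed the correction (adjusted p = 0.164).

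Slc3a2 is the heavy chain that partners Slc7a5 and several other light chains. Slc3a2 (ENSMUSG00000010095, chr19:8706882-8723369, minus strand) stood at 10.5, 11.7 and 12.1 FPKM in NC replicates 1, 2 and 3, at 20.3, 24.6 and 28.9 FPKM in APAP replicates 1, 2 and 3, and at 25.7, 19.7 and 26.9 FPKM in AMSC replicates 2, 3 and 4. The NC libraries were close together and all below the libraries of dosed mice, and the APAP and AMSC libraries interleaved. From NC to APAP, Slc3a2 rose by a log2 fold change of 1.03 (adjusted p = 0.00305, SE 0.15). For AMSC against NC the rise was 1.01 in log2 (adjusted p = 0.00152, SE 0.14). Each of these ratios of mean FPKM was a little above 2, at 2.15 and 2.11. With FPKM rescaled to the reads on genes the log2 fold changes were 0.79 and 0.82, still called but no longer DEGs.

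Slc3a1 is the other heavy chain, the partner of the cystine and dibasic amino acid carrier of kidney and intestine. Slc3a1 (ENSMUSG00000024131, chr17:85028347-85064243, plus strand) stood at 13.1, 8.72 and 7.23 FPKM in NC replicates 1, 2 and 3, at 18.4, 19.4 and 17.1 FPKM in APAP replicates 1, 2 and 3, and at 6.17, 14.6 and 13.9 FPKM in AMSC replicates 2, 3 and 4. The APAP libraries lay above all NC libraries and all AMSC libraries, and AMSC replicate 2 was the lowest of all 9 libraries. Slc3a1 rose in APAP against NC by a log2 fold change of 0.89 (adjusted p = 0.0153, SE 0.20). This call was lost without NC replicate 2 (adjusted p = 0.0615), without APAP replicate 2 (0.0542) and when genes under 1 FPKM were tested too (0.0792), within a range of 0.00663 to 0.0792 over the 15 alternatives. In AMSC against APAP, the log2 fold change was -0.70 (adjusted p = 0.217, SE 0.28), which is not a call. Its usual partner Slc7a9 had 6 reads over the 9 libraries. Slc3a1 overlaps Prepl on the opposite strand, which had up to 484 reads in a library, and whether reads were counted by strand is not given. Slc7a10, which overlaps Lrp3 (up to 530 reads in a library) on the opposite strand, had 0 reads. The part of such overlaps in the counts was not tested.

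The remaining light chains were at low levels. Slc7a7 and Slc7a8, exchangers of cationic and of neutral amino acids, lay at 0.418 to 0.718 FPKM and at 0.386 to 0.909 FPKM over the 9 libraries. Slc7a7 overlaps Oxa1l, which had up to 912 reads in a library, on the opposite strand. Slc7a6, an exchanger of cationic for neutral amino acids, is named after its values were seen, with 1, 5 and 1 reads in the NC replicates, 11, 19 and 26 in the APAP replicates and 13, 17 and 13 in the AMSC replicates. All 6 read counts of Slc7a6 in dosed mice were above all 3 in NC. In voom on genes with at least 10 mean reads, its adjusted p was 0.00943 in APAP against NC (range 0.00943 to 0.0640 over the 2 alternatives that tested it) and 0.00857 in AMSC against NC (range 0.00857 to 0.0408). Slc7a10, Slc7a12 and Slc7a13 had 0 reads.

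Proton-coupled carriers of the Slc36 family move small amino acids such as proline, glycine and alanine out of lysosomes or across the plasma membrane, and 2 of 4 members were tested. Slc36a1 is the lysosomal member that has been linked to mTORC1. Slc36a1 (ENSMUSG00000020261, chr11:55204350-55236330, plus strand) stood at 7.88, 6.96 and 5.10 FPKM in NC replicates 1, 2 and 3, at 2.04, 1.53 and 1.67 FPKM in APAP replicates 1, 2 and 3, and at 1.79, 2.63 and 2.19 FPKM in AMSC replicates 2, 3 and 4. Every library of dosed mice was below every NC library, and the APAP and AMSC ranges overlapped. Slc36a1 fell in APAP against NC, with a log2 fold change of -1.46 (adjusted p = 0.00102, SE 0.16), and its mean FPKM was 3.80-fold lower. From NC to AMSC the log2 fold change was -1.25 (adjusted p = 0.00143, SE 0.17), a mean FPKM 3.02-fold lower. It was the only member to pass the DEG call in the lower direction in either comparison, and all 15 alternatives called it in both.

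Slc36a4, a carrier of proline and tryptophan, was the other tested member of this family. Its levels were 1.2, 1.18 and 1.08 FPKM in the NC replicates and 1.71, 1.76 and 1.63 FPKM in the APAP replicates, which did not overlap, and 1.06, 1.78 and 1.44 FPKM in the AMSC replicates, which overlapped both. It was not called in APAP against NC (adjusted p = 0.0685), though voom called it (0.0338, range 0.0338 to 0.260 over the 15 alternatives). Slc36a2 and Slc36a3 had 0 reads.

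Slc43 carriers need no ion gradient, and 2 of 3 members were tested. Slc43a1 carries branched-chain and other large neutral amino acids. Slc43a1 (ENSMUSG00000027075, chr2:84838850-84863594, plus strand) stood at 1.98, 1.56 and 1.43 FPKM in NC replicates 1, 2 and 3, at 0.848, 0.663 and 0.950 FPKM in APAP replicates 1, 2 and 3, and at 0.881, 1.21 and 0.803 FPKM in AMSC replicates 2, 3 and 4. The NC libraries were the highest, with AMSC replicate 3 nearest to them and no overlap. With APAP compared with NC, Slc43a1 fell, with a log2 fold change of -0.54 (adjusted p = 0.0239, SE 0.14). The call was lost without NC replicate 1 (adjusted p = 0.0993), NC replicate 2 (0.0710) or APAP replicate 2 (0.0679) and with genes under 1 FPKM tested too (0.0641), the range over the 15 alternatives being 0.00740 to 0.0993. With AMSC compared with NC the log2 fold change of Slc43a1 was -0.44 (adjusted p = 0.0451, SE 0.13). That call was lost without NC replicate 1 (adjusted p = 0.151), NC replicate 2 (0.0993), AMSC replicate 2 (0.120) or AMSC replicate 4 (0.136), and with genes under 1 FPKM tested too (0.130), among other alternatives, within 0.0151 to 0.584 over the 15 alternatives, of which 9 called it.

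Slc43a3, a family member known to carry purine nucleobases rather than amino acids, lies on the same chromosome as Slc43a1 and on the same strand. Slc43a3 (ENSMUSG00000027074, chr2:84936579-84958509, plus strand) stood at 3.54, 3.85 and 5.04 FPKM in NC replicates 1, 2 and 3, at 13.2, 5.73 and 6.27 FPKM in APAP replicates 1, 2 and 3, and at 7.56, 5.55 and 6.56 FPKM in AMSC replicates 2, 3 and 4. APAP replicate 1 was far above the other 8 libraries, and all libraries of dosed mice were above all NC libraries. Per read on genes this separation did not hold. NC replicate 3 had 387 of 15376434 reads on Slc43a3, a larger share than the 317 of 13640978 in APAP replicate 2. Slc43a3 rose in AMSC against NC by a log2 fold change of 0.56 (adjusted p = 0.0282, SE 0.15). That call was lost without NC replicate 1 (adjusted p = 0.0990), NC replicate 2 (0.0907), AMSC replicate 2 (0.0912) or AMSC replicate 4 (0.0806). It was also lost with 1 fit to all 9 libraries (0.155), with FPKM rescaled to the reads on genes (0.0859) and with genes under 1 FPKM tested too (0.115), within 0.0146 to 0.341 over the 15 alternatives, of which 7 called it. In APAP against NC, its adjusted p was 0.0750, and the fit to all 9 libraries called it (0.0418, range 0.0418 to 0.243). Slc43a2, a carrier of large neutral amino acids like Slc43a1, had group means of 0.642 ± 0.205 FPKM in NC, 1.12 ± 0.329 in APAP and 0.691 ± 0.153 in AMSC (SD, n = 3 each) and was under the level for testing.

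The Slc6 family couples uptake to sodium and chloride and takes in osmolytes, creatine and transmitters as well as amino acids. It was the largest family. Apart from Slc6a21, which is described further below, it had 20 members, of which 6 were tested and 7 had 0 reads. Slc6a16, an orphan carrier with no settled substrate, was the only tested member of it to be called. Slc6a16 (ENSMUSG00000094152, chr7:45241085-45273367, plus strand) stood at 0.555, 0.650 and 0.961 FPKM in NC replicates 1, 2 and 3, at 0.961, 1.23 and 1.01 FPKM in APAP replicates 1, 2 and 3, and at 1.62, 1.17 and 1.32 FPKM in AMSC replicates 2, 3 and 4. The AMSC libraries were above all NC libraries, and NC replicate 3 and APAP replicate 1 had the same value to 3 digits. Slc6a16 rose in AMSC against NC by a log2 fold change of 0.46 (adjusted p = 0.0384, SE 0.14). The call was lost without NC replicate 1 (adjusted p = 0.128), NC replicate 2 (0.117), AMSC replicate 2 (0.117) or AMSC replicate 4 (0.0887). Quantile normalization (0.0617), rescaling to the reads on genes (0.0765) and testing genes under 1 FPKM too (0.119) also ended it, within 0.0224 to 0.413 over the 15 alternatives, of which 7 called it.

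Carriers of osmolytes were the most abundant members of the Slc6 family. Slc6a13, a carrier of taurine and of the transmitter GABA in hepatocytes, had group means of 52.9 ± 5.20 FPKM in NC, 63.3 ± 5.0 in APAP and 45.1 ± 6.01 in AMSC (SD, n = 3 each). Its APAP libraries all lay above its NC and AMSC libraries, and its adjusted p was 0.188 in APAP against NC and 0.107 in AMSC against APAP. With FPKM rescaled to the reads on genes, the log2 fold change of APAP against NC went from 0.25 to -0.00, and Slc6a13 was called lower in AMSC against NC (adjusted p = 0.0433, range 0.0433 to 0.619 over the 15 alternatives). Slc6a12, the betaine carrier, had group means of 22.9 FPKM in NC, 25.3 in APAP and 24.2 in AMSC. Slc6a6, the taurine carrier, stood at 11.7, 10.3 and 6.73 FPKM in NC replicates 1, 2 and 3, at 7.33, 6.47 and 6.62 FPKM in APAP replicates 1, 2 and 3, and at 4.79, 5.45 and 7.28 FPKM in AMSC replicates 2, 3 and 4. NC replicates 1 and 2 were above every other library, and NC replicate 3 was within the range of the dosed mice. Slc6a6 was not called in APAP against NC (adjusted p = 0.151) or AMSC against NC (0.0623). Without NC replicate 3 it was called in both, with an adjusted p of 0.0211 (range 0.0211 to 0.416 over the 15 alternatives) and of 0.0136 (range 0.0136 to 0.234). voom (0.0422), quantile normalization (0.0466) and the fit to all 9 libraries (0.0450) also called it in AMSC against NC, and rescaling to the reads on genes called it in APAP against NC (0.0334) and AMSC against NC (0.0231).

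Slc6a9, the glycine carrier, had group means of 3.08 ± 0.871 FPKM in NC, 3.09 ± 1.16 in APAP and 4.74 ± 1.05 in AMSC (SD, n = 3 each). Every AMSC library was above every NC library and the APAP libraries overlapped both groups, with no call (adjusted p = 0.0964 in AMSC against NC). Slc6a8, the creatine carrier, had group means of 1.25 FPKM in NC, 1.58 in APAP and 1.73 in AMSC, also with no call. Slc6a4, the serotonin carrier, is named after its values were seen: it had 5, 7 and 6 reads in the NC replicates, 9, 5 and 4 in the APAP replicates and 0 in each AMSC replicate, where up to 3 reads per library are allowed by a count of 0. The test that included genes under 1 FPKM called Slc6a4 in AMSC against NC (adjusted p = 0.00882), and no other alternative tested it. The members with 0 reads in this family include the noradrenaline carrier Slc6a2 and the dopamine carrier Slc6a3.

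Of the Slc1 family, carriers of glutamate and of neutral amino acids, none of the 6 members analysed reached the level for testing and none was at 0 reads in all libraries. Slc1a4, an exchanger of alanine, serine and cysteine, was the highest of them in mean FPKM. Slc1a4 (ENSMUSG00000020142, chr11:20302180-20332713, minus strand) stood at 0.916, 1.10 and 0.474 FPKM in NC replicates 1, 2 and 3, at 0.456, 0.514 and 0.436 FPKM in APAP replicates 1, 2 and 3, and at 1.15, 2.04 and 1.19 FPKM in AMSC replicates 2, 3 and 4. Every AMSC library was above every NC and every APAP library, and the APAP libraries overlapped only NC replicate 3. The read counts were 60, 75 and 32 in the NC replicates, 24, 25 and 23 in the APAP replicates and 72, 104 and 70 in the AMSC replicates. Slc1a4 was tested by 2 alternatives, and voom on genes with at least 10 mean reads, chosen after seeing the data, called it in AMSC against APAP, with a log2 fold change of 1.55 on log2 normalized reads (adjusted p = 0.0334, range 0.0334 to 0.182). Slc1a5, the glutamine exchanger of many growing cells, lay between 0.187 and 0.785 FPKM. The other 4 members analysed, Slc1a1, Slc1a3, Slc1a6 and Slc1a7, had at most 15 reads each over the 9 libraries.

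A pair of members belonged to no role above. Slc7a6os met the symbol rule but is not a transporter: its name records that it lies beside Slc7a6 on the other strand. Slc7a6os (ENSMUSG00000033106, chr8:106200717-106210935, minus strand) stood at 3.14, 4.10 and 4.65 FPKM in NC replicates 1, 2 and 3, at 4.13, 7.02 and 7.32 FPKM in APAP replicates 1, 2 and 3, and at 6.50, 5.20 and 5.52 FPKM in AMSC replicates 2, 3 and 4. APAP replicate 1 was within the NC range, and every other library of dosed mice was above it. Its adjusted p was 0.119 in APAP against NC, and a fit that pairs libraries by replicate number called it (0.0241), as did leaving out APAP replicate 1 (0.0158, range 0.0158 to 0.322 over the 15 alternatives). In AMSC against NC, the adjusted p of Slc7a6os was 0.0530, and it was called without NC replicate 3 (0.0334) and by voom (0.0408, range 0.0334 to 0.501). The other, Slc6a21, had 67 reads over the 9 libraries.

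Among the 20 members that never reached 0.5 FPKM, Slc38a1, a sodium-coupled glutamine carrier, is named after its values were seen. It had 10, 8 and 11 reads in the NC replicates, 39, 18 and 24 in the APAP replicates and 15, 5 and 9 in the AMSC replicates. The APAP counts were above all others, and the NC and AMSC counts overlapped. voom on genes with at least 10 mean reads called Slc38a1 in APAP against NC, with a log2 fold change of 1.77 on log2 normalized reads (adjusted p = 0.0173, range 0.0173 to 0.0976 over the 2 alternatives that tested it). With that alternative, 12 of 31 members tested were called in APAP against NC and 13 of 31 in AMSC against NC, and these included all those called by the test on FPKM. Over all genes the same alternative called 3308 and 3169 of 12697.

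**Figure D2:**
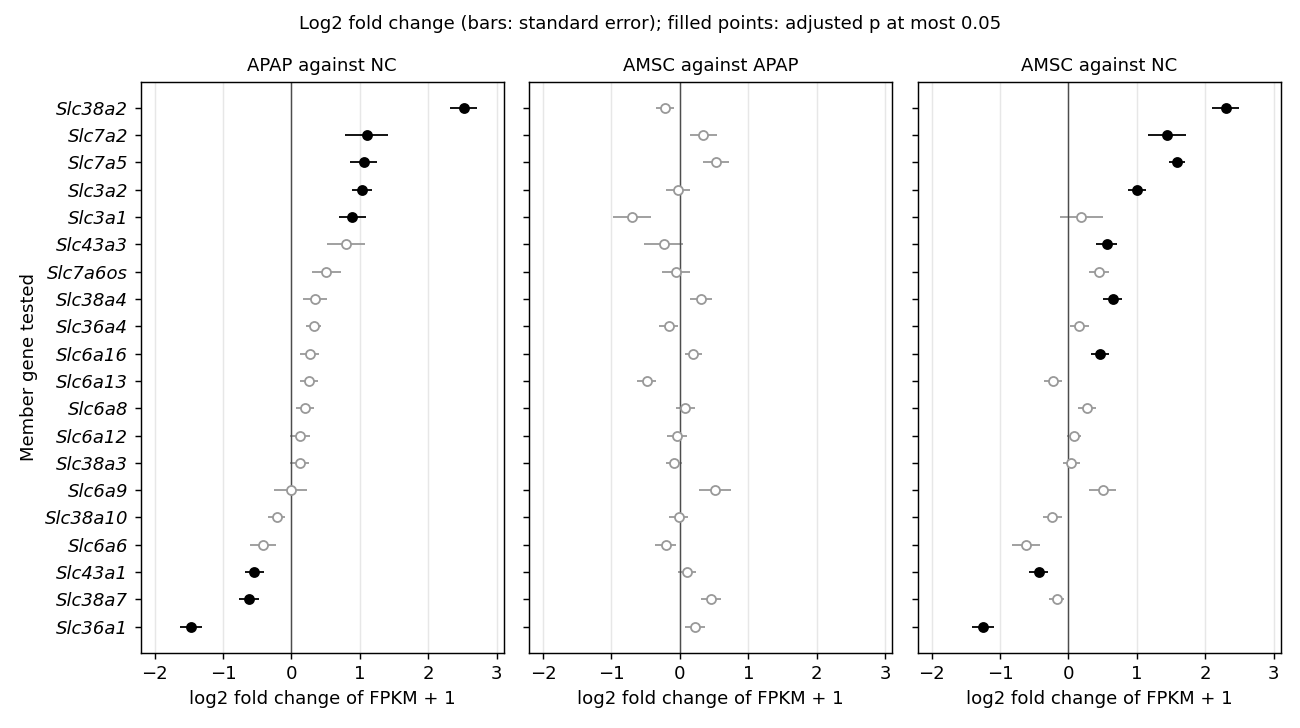
Log2 fold change of log2(FPKM + 1) with its SE for the 20 tested members in the 3 comparisons, with filled points for an adjusted p of at most 0.05. Slc38a2 lies farthest to the right in both comparisons with NC (2.52 and 2.30), Slc36a1 farthest to the left (-1.46 and -1.25), and no point is filled in AMSC against APAP.

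For AMSC against APAP, the 4 members at an unadjusted p under 0.05 were Slc6a13, Slc38a7, Slc7a5 and Slc3a1. Slc6a13 had the smallest adjusted p of the members tested, 0.107, with a log2 fold change of -0.48. Slc38a7 had a log2 fold change of 0.45 and an adjusted p of 0.140. Slc3a1 had the largest absolute log2 fold change, -0.70, and AMSC replicate 2 was far below the other AMSC libraries for it. None of these is a call, and a p that misses the threshold does not show that levels were the same. For Slc38a2 and Slc3a2, which rose in both comparisons with NC, AMSC against APAP gave log2 fold changes of -0.22 and -0.03, with SEs of 0.13 and 0.18, and the sign for Slc3a2 changed with FPKM rescaled to the reads on genes (0.04).

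The surroundings of these carriers were followed in 5 gene lists, each given by counts of called genes and a median. Of all genes tested, 12.8% were higher and 13.1% lower in APAP against NC (median -0.00), 14.1% and 11.9% in AMSC against NC (0.02) and 1.64% and 2.14% in AMSC against APAP (0.01). List genes given without a value are named after their values were seen. The first list holds transport partners and amino acid carriers of other families, Slc7a6os among them, and 16 of its genes were tested. For APAP against NC, 4 were higher and 2 (Slc25a38 and Slc25a44) lower, with a median log2 fold change of 0.05. The higher genes were the lysosomal histidine carrier Slc15a3 (0.99), the mitochondrial carriers Slc25a29 of basic amino acids (0.77) and Slc25a22 of glutamate (0.72), and the lysosomal cationic carrier Pqlc2 (0.73). The count of higher genes was 2 without NC replicate 1 or APAP replicate 2, and that of lower genes was 0 without NC replicate 1 or 2 and 1 without NC replicate 3, APAP replicate 2 or APAP replicate 3, and 6 with FPKM rescaled to the reads on genes. Slc25a29 lost its call with the rescaled FPKM and without NC replicate 1 or 3 or APAP replicate 2 or 3, and Pqlc2 without NC replicate 1 or 2 or APAP replicate 2, at adjusted p of up to 0.0944 and 0.0694. For AMSC against NC, Slc25a22 (0.68) and Pqlc2 (0.64) were higher and the mitochondrial glycine carrier Slc25a38 (-0.31) was lower, with a median of 0.21. The 2 higher became 1 without NC replicate 2 or AMSC replicate 4 and 4 without NC replicate 3, the lower gene became 3 with the rescaled FPKM, and Slc25a38 lost its call whichever library was left out (adjusted p up to 0.160). From APAP to AMSC, limma called 0 higher and 0 lower, with 2 and 1 at an unadjusted p under 0.05, voom also called 0, and without APAP replicate 2 limma called 1 lower.

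The second list holds genes that sense amino acids upstream of mTORC1, the pathway that Slc38a9 and Slc36a1 have been linked to, and 34 were tested. From NC to APAP, 3 were higher and 3 lower (median log2 fold change -0.08). The higher genes were the leucine sensor Sesn2 (2.64) and the partners Flcn (1.23) and Fnip1 (0.81), which act on Rag GTPases. Sesn2 is also in the third list and is counted as higher there too, in both comparisons with NC. The count of lower genes, Rnf152 (-0.52), Mlst8 and Sec13, was 0 whichever NC library was left out and without APAP replicate 2, 1 without APAP replicate 3, 6 after quantile normalization and 13 with FPKM rescaled to the reads on genes. From NC to AMSC, 6 were higher and 4 (Deptor, Lamtor2, Nprl2 and Rnf152) lower, with a median of 0.08, Sesn2 at 2.68, Fnip1 at 1.18, Flcn at 1.01 and the leucyl-tRNA synthetase gene Lars at 0.88, and the count of lower genes was 2 whichever library other than AMSC replicate 3 was left out. With AMSC compared with APAP, 1 was higher, Lars (0.92, adjusted p = 0.00956), whose call was lost without AMSC replicate 4 (0.0506, range 0.00137 to 0.0678 over the 15 alternatives). The rescaled FPKM gave 2 higher. limma called 0 lower there, with 1 at an unadjusted p under 0.05, and voom called 0.

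The third list holds the amino acid starvation response from the kinase GCN2 to the transcription factor ATF4, a response known to raise Slc38a2, Slc7a5 and Slc3a2 in cultured cells, and 23 of its genes were tested. With APAP compared with NC, 13 were higher and 1 (Cebpg) lower, with a median log2 fold change of 1.26, and 3 were lower with FPKM rescaled to the reads on genes. The transcription factors Atf3 (7.45) and Ddit3 (3.73), the hormone gene Fgf21 (3.87) and the glutathione-degrading enzyme gene Chac1 (3.68) rose most. With AMSC compared with NC, 18 were higher and limma called 0 lower, with 0 lower at an unadjusted p under 0.05 and 0 by voom, and the median log2 fold change was 1.79. The largest rises were those of Atf3 at 7.32, Chac1 at 5.56, Ddit3 at 4.27 and Fgf21 at 4.18. In AMSC against APAP, 2 were higher and 1 lower (median 0.28): the mTORC1 inhibitor gene Ddit4 (2.43) and the folate enzyme gene Mthfd2 (1.11) rose and Jdp2 (-0.89) fell. The count of higher genes there was 4 without APAP replicate 1, 1 whichever other library was left out and 5 with 1 fit to all 9 libraries. Jdp2 lost its call whichever library other than APAP replicate 2 was left out, and Mthfd2 whichever other than APAP replicate 1, at adjusted p of up to 0.147 and 0.142. The part of this response in the members' results was not tested.

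The fourth list holds enzymes that break down or convert amino acids in hepatocytes, and 50 were tested. In APAP against NC, 9 were higher and 8 lower, with a median log2 fold change of -0.01. Ornithine aminotransferase Oat (-3.71), glutamine synthetase Glul (-3.02) and the taurine enzyme Csad (-1.38) fell, and serine dehydratase Sds (1.46) rose. The count of higher genes was 2 to 5 whichever library other than APAP replicate 1 was left out, 4 after quantile normalization and 5 with FPKM rescaled to the reads on genes, which gave 13 lower, and Sds lost its call without the same libraries (adjusted p up to 0.0968). In AMSC against NC, 14 were higher and 5 lower, with a median of 0.09, Sds at 2.09, Tat at 1.56, Got1 at 1.06 and Gpt2 at 1.0. The count of lower genes was 2 without NC replicate 1 or AMSC replicate 4, 3 without AMSC replicate 2, 12 after quantile normalization and 15 with the rescaled FPKM, and that of higher genes was 9 in both of the last 2. For AMSC against APAP, 6 were higher and 1 (Hal) lower, with a median of 0.08, Oat at 3.28, Glul at 2.12, Csad at 1.71 and Gpt2 at 1.0. The count of higher genes was 2 without APAP replicate 3, AMSC replicate 2 or AMSC replicate 3 and 1 without AMSC replicate 4, and that of lower genes was 2 without APAP replicate 1 and 0 without APAP replicate 2, APAP replicate 3, AMSC replicate 2 or AMSC replicate 4, while it was 4 with 1 fit to all 9 libraries and 3 by voom. The calls of Oat, Gpt2 and Csad were lost in some of these, Oat without APAP replicate 3 and whichever AMSC library was left out (adjusted p up to 0.101), Gpt2 whichever library but APAP replicate 2 was left out (up to 0.127) and Csad without AMSC replicate 4 (0.0512).

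The fifth list holds genes known to respond to fasting and feeding, given because APAP and AMSC mice had been fasted, and 17 were tested. For APAP against NC, 6 were higher and 5 lower, with a median log2 fold change of 0.30. Igfbp1 (7.98), Pdk4 (4.96), Angptl4 (3.41) and G6pc (1.89), all known to be higher in fasting, rose, and the count of lower genes was 3 without NC replicate 1 or 2 or APAP replicate 2 or 3. For AMSC against NC, 8 were higher and 4 (Acaca, Elovl6, Fasn and Srebf1) lower, with a median of 0.37, Igfbp1 at 6.64, Pdk4 at 3.11, Angptl4 at 2.77 and the lipid synthesis gene Elovl6 at -2.44. From APAP to AMSC, 3 were lower (median -0.36), G6pc at -1.86, Pdk4 at -1.85 and Igfbp1 at -1.34. This count was 1 without AMSC replicate 2 or 3, Igfbp1 lost its call whichever library but APAP replicate 1 was left out (adjusted p up to 0.130), and Pdk4 without AMSC replicate 2 or 3 (up to 0.0748). limma called 0 higher there, with 1 at an unadjusted p under 0.05, and voom called 0. The part of these genes in the members' results was not tested.

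Markers of liver cell types were followed because carriers differ between cell types. All 10 hepatocyte markers were tested, their summed level being 46386, 43944 and 46968 FPKM in the NC replicates, 59913, 66960.5 and 68139 in the APAP replicates and 55816, 56056 and 57988 in the AMSC replicates, with Alb the most abundant, so the libraries carried the markers of the labelled tissue. The 12 macrophage markers, C1qa the most abundant, summed to 140.2, 134 and 261 FPKM in NC, 354, 193 and 509.8 in APAP and 188, 119 and 118 in AMSC. The 6 erythroid markers, Hbb-bs the most abundant, summed to 137, 135 and 254 FPKM in NC, 1073, 306 and 1406 in APAP and 312, 183 and 234 in AMSC. APAP replicates 1 and 3 were high for both lists.

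The 7 neutrophil markers, S100a9 the most abundant, summed to 0.173, 0.25 and 1.66 FPKM in NC, 33.5, 7.14 and 15.6 in APAP and 5.78, 5.66 and 4.27 in AMSC, and APAP replicate 1 was the highest library for them. The 9 sinusoidal endothelial markers, Clec4g the most abundant, summed to 24.8, 30.9 and 54.5 FPKM in NC, 80.8, 28.7 and 48.9 in APAP and 27.8, 26.5 and 27.2 in AMSC. The 11 stellate cell and fibroblast markers, Dcn the most abundant, summed to 24.9, 29.8 and 44.9 FPKM in NC, 77.9, 33.8 and 63.5 in APAP and 51.9, 32.5 and 38.6 in AMSC. The 6 cholangiocyte markers, Spp1 the most abundant, summed to 18.7, 39.6 and 18.7 FPKM in NC, 57.4, 97.4 and 86.7 in APAP and 50.5, 27.3 and 28.5 in AMSC. None of the markers in these lists was at 0 in all libraries, and their part in the members' results was not tested.

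The 7 markers of mesenchymal stem cells, Itgb1 the most abundant and none at 0, summed to 56.0, 50.2 and 65.8 FPKM in NC, 90.8, 62.4 and 72.9 in APAP and 54.5, 53.2 and 58.3 in AMSC, and the AMSC libraries lay within the NC range. Most of each sum was Itgb1, with 41.59, 34.47 and 40.72 FPKM in NC replicates 1, 2 and 3. In AMSC replicates 2, 3 and 4, Itgb1 stood at 37.97, 38.27 and 44.33 FPKM. Whether these sums hold RNA of the transferred cells was not tested. The 9 lymphocyte markers, Cd79a the most abundant and none at 0, summed to at most 2.47 FPKM in any library. Of the 6 kidney and intestine markers, Umod, Slc12a1 and Nphs1 were at 0 in all libraries and Fabp2 was the most abundant, with 39.0 FPKM for the list in the NC mean. Nearly all of this was Fabp2, with 34.8 of 34.8, 35.5 of 35.7 and 46.4 of 46.5 FPKM in NC replicates 1, 2 and 3. Of the 6 brain and nerve markers, Snap25 and Th were at 0 in all libraries, Mbp was the most abundant, and the list summed to at most 0.513 FPKM in any library. The members Slc7a9 and Slc6a19, best known from kidney and gut, had 6 reads each over the 9 libraries, while Slc3a1, the usual partner of Slc7a9, was well above 0.

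Promoters of members were searched for the core of the C/EBP-ATF element, the sequence through which ATF4 is known to act, spelled TGATGNAA, or TTNCATCA when read on the other strand. RefSeq promoters of 300 bases, on build GRCm38.p6, run from 250 bases before to 50 bases after a start, and 44 of the 62 members matched, with 65 promoters. The letters were in 4 of these 65 promoters (6.15%), which belong to Slc1a4, Slc6a21 and Slc7a7, and in 1304 of all 32851 promoters (3.97%). They were in 190 of the 9149 promoters of genes tested (2.08%), in 0 of the 24 promoters found for 14 of the 20 tested members, and in 0 of the 10 found for 8 of the 11 members called in any comparison. Slc7a2, Slc7a5 and Slc43a3 matched no promoter of the set and were not searched. A match is a description of letters and not of a site, and no match says only that these letters are not in this window. The promoters of Slc1a4 (chr11:20332664-20332963, minus strand), the member with these letters that an alternative called, and of Slc38a2 (chr15:96699679-96699978, minus strand), the tested member with the largest change of log2(FPKM + 1), are shown 5′ to 3′ along the gene, with the match in capitals, its first base at position -4 from the start.
Slc1a4: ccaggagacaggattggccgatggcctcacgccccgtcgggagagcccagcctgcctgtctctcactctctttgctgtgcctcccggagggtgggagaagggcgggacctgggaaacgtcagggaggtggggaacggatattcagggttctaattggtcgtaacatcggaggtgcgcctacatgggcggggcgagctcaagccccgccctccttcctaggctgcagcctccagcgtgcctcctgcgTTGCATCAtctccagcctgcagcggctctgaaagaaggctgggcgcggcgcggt
Slc38a2: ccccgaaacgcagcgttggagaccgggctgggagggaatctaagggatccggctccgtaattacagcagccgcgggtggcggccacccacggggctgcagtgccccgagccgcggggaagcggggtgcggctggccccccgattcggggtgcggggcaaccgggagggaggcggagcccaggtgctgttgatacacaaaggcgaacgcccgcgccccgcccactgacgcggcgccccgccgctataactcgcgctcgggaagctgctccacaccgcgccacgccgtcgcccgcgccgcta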

How the data were processed

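RNA of 9 mouse livers was measured by sequencing, 3 per group. The authors deposited FPKM values per gene, per kilobase of gene length and scaled per library, and the gene lengths they used. The aligner and the counting program are not given in the sources used here. The submitters' notes name the genome build GRCm38 (mm10), and all 62 member identifiers were in GENCODE vM21. FPKM times length was checked and was a whole multiple of 1 step per library, within 0.1, so reads per gene could be recovered. The totals behind FPKM were in proportion to median-of-ratios size factors computed from these reads.

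Members and lists were chosen with earlier results of these data known. Genes averaging 1 FPKM or more over the 9 libraries, 9699 in all, were tested on log2(FPKM + 1) in R 4.3.3, using lmFit and trended eBayes of limma 3.58.1, with 2 groups in each fit. P-values were adjusted by Benjamini-Hochberg over all genes tested, never over the members alone. A gene with an adjusted p of at most 0.05 is called, and a called gene with an absolute log2 fold change of at least 1 is a DEG. Tables and plots were made with matplotlib 3.10.9, numpy 2.4.6 and pandas 2.3.3 under Python 3.11.15. The fits were tested on simulated data.

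Every member with a mean of at least 1 FPKM is named, with the value in every library if it was called, and members under it are named where a library reaches 0.5 FPKM. Of each pathway or fasting list, up to 4 called genes per comparison with the largest absolute log2 fold change are named. The 2 family genes that the rule leaves out are not analysed here, and 3 other genes, a member among them, are in the counts but are not reported here by name.

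Libraries of 1 replicate number were checked for pairing by the correlation, across genes, of their differences from their group means. It was 0.213, 0.160 and 0.378 for APAP and NC replicates 1, 2 and 3. Each was over 0.1, but this rests on the values alone and does not establish that these libraries are paired. The calls reported above are from fits without a block, unless the block is named. The labels name no shared animal or batch, and the title of NC replicate 3 carries another date than the rest and the number 1, so the labels do not support the third pair. The fit with replicate number as a block there changed the call of Slc7a6os alone among the members. AMSC shares only numbers 2 and 3 with the other groups, and the correlations were -0.104 and -0.293 with APAP and -0.199 and -0.309 with NC. Values over 0.1 also arose without a shared number. AMSC replicate 2 stood at 0.409 with APAP replicate 3 and 0.382 with NC replicate 3, and at -0.254 and -0.297 with their replicates 1.

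The alternatives were a pseudocount of 0.1, no filter on low genes, quantile normalization, 1 fit to all 9 libraries, the replicate block, no trend, voom on recovered reads and leaving out each library in turn. Voom on genes with at least 10 mean reads and FPKM rescaled to the reads on genes of each library were added after seeing the data.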

Additional observations from a re-analysis of the deposited data

How the results depend on the processing

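The fold changes of the 11 members called in any comparison kept their direction and their side of the threshold in 443 combinations of result and alternative, lost the call in 45, gained a call in 1 and changed sign in 6. The 9 tested members called in no comparison stayed uncalled in 388 and were called in 17. Of the members under the level for testing, Slc7a1, Slc7a6, Slc38a1, Slc6a4 and Slc1a4 were called by at least 1 alternative that tested them. For named list genes the call was kept in 665 and lost in 85, and list counts stayed within 1.5 times in 332 and moved further in 118.

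In APAP against NC, 8 members were called, and leaving out a library gave 4 to 8. Over all 9699 genes, 2514 were called, and leaving out a library gave 1353 to 2749. With no filter on low genes, where 48 members with reads were tested, 4 were called and 3 were DEGs, in place of 5 DEGs as reported. The same test called 1924 of all 24849 genes. Quantile normalization and FPKM rescaled to the reads on genes left 2 DEGs, leaving out a library 3 to 5, and voom on genes with at least 10 mean reads gave 9. For DEGs under these alternatives, no share over all genes is given. Voom on genes with at least 10 mean reads called 1 member in AMSC against APAP, a DEG (1), in place of 0. In AMSC against NC, the replicate block called 5 members in place of 9, and 846 of all 9699 genes in place of 2521. The members it lost were Slc38a4 (adjusted p = 0.0821), Slc43a1 (0.584), Slc43a3 (0.341) and Slc6a16 (0.413), in a fit where AMSC and NC share 2 numbers.

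The replicate block also moved list counts. With AMSC compared with NC, transport partners and other carriers went from 2 higher and 1 lower to 0 and 0, with Slc25a22 at an adjusted p of 0.123, Pqlc2 at 0.202 and Slc25a38 at 0.561. Lower sensing genes there went from 4 to 0, and the catabolism list from 14 higher and 5 lower to 7 and 1. From APAP to AMSC, higher sensing genes and lower catabolism genes went from 1 to 0 each, and fasting genes from 0 higher and 3 lower to 2 and 5. For APAP against NC, the block moved no list count by over 1.5 times.

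Other alternatives moved list counts by over 1.5 times as well. The fit to all 9 libraries gave 6 lower sensing genes in APAP against NC in place of 3, 2 lower starvation response genes in place of 1, and 2 lower transport partners in AMSC against NC in place of 1. From APAP to AMSC it gave 5 higher starvation response genes in place of 2, 4 lower catabolism genes in place of 1, 2 higher sensing genes in place of 1 and 1 higher transport partner in place of 0. Voom gave 5 of the lower sensing genes, 3 of the lower catabolism genes and 2 of the higher sensing genes in the same comparisons, and so did voom on genes with at least 10 mean reads, which also gave 4 higher starvation response genes from APAP to AMSC and 2 lower in APAP against NC. No trend gave 2 lower catabolism genes from APAP to AMSC and 0 lower transport partners in AMSC against NC, where quantile normalization gave 3. A pseudocount of 0.1 gave 1 higher starvation response gene from APAP to AMSC.

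With no filter on low genes, most list counts that moved fell. For APAP against NC, higher transport partners went from 4 to 1 and lower from 2 to 1, lower sensing genes from 3 to 1, higher catabolism genes from 9 to 3 and lower fasting genes from 5 to 3, while lower starvation response genes went from 1 to 2. With AMSC compared with NC, higher transport partners went from 2 to 1 and lower from 1 to 2, lower sensing genes from 4 to 1, higher catabolism genes from 14 to 8 and higher fasting genes from 8 to 5. From APAP to AMSC, higher catabolism genes went from 6 to 1 and lower from 1 to 0, starvation response genes from 2 higher and 1 lower to 1 and 0, and lower fasting genes from 3 to 0.

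The sign changed for members that were not called in the comparison concerned. In AMSC against APAP, the log2 fold change of Slc43a3 was -0.24, 0.10 with the replicate block, and -0.44 to 0.10 with a library left out. That of Slc3a2 was -0.03, 0.03714 with FPKM rescaled to the reads on genes, and -0.15 to 0.11 with a library left out. In AMSC against NC, Slc3a1 was at 0.19, and at -0.0111 to 0.55 with a library left out. The cause was not tested.

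With 13418921 to 16210930 reads on genes per library, 42 members lay under the level for testing. Of these, 14 had 0 reads, and differences in them were not detectable at this depth. Another 14 had at most 20 reads over the 9 libraries.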
